A study of Mus musculus with 6 samples.

Results

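The FAT10 system was examined in mouse skin with and without alopecia areata, a hair loss of autoimmune origin with lymphocytes gathered around the follicles. The rule named 4 genes, the modifier Ubd (FAT10), its activating enzyme Uba6, its conjugating enzyme Ube2z and its binding partner Nub1, and took every probe set whose only gene symbol was one of these. It found 9 probe sets among 45037, namely 1 for Ubd, 5 for Uba6 and 3 for Ube2z, so that 3 of the 4 genes were measured among 18193. For Nub1 the rule found no probe set, and its level is not analysed here. All mice were C3H/HeJ, an inbred strain in which the disease can arise spontaneously. In the alopecic group 3 mice with alopecia areata were sampled in affected skin, and in the unaffected group 3 mice without it were sampled. Each mouse gave 1 array of total skin RNA, labelled from the 3' end of transcripts. Age, sex, body site and stage of the hair cycle are not stated in the labels. The set was chosen by the measured difference of Ubd between these groups, with the other genes added as its machinery, so the differences of Ubd, Uba6 and Ube2z are a description and carry no p-value.

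FAT10 is a small protein of a pair of ubiquitin-like domains in tandem, which is joined to other proteins through its free carboxyl-terminal diglycine. UBA6 activates it, as it also activates ubiquitin, and passes it to the conjugating enzyme encoded by Ube2z, also called USE1. Unlike ubiquitin, FAT10 is degraded by the proteasome along with the protein it marks, and NUB1, which binds it, speeds this degradation. The gene lies in the MHC region, is known for strong induction by interferon gamma and tumour necrosis factor, and is found in mature dendritic cells, B cells and cytokine-treated epithelial cells.

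Values were log2 units after RMA, which puts arrays on a common scale and gives each probe set 1 value, and array medians lay between 6.11 and 6.17. Unaffected replicate 3 stood apart: 42.2% of the summed squared deviation of arrays around their group's mean, over genes, came from it. Hair shaft and inner root sheath genes were low in it, with a mean log2 value of 5.55 over 8 markers. That mean was 11.70, 11.53 and 12.17 in alopecic replicates 1, 2 and 3, and 13.01 and 13.58 in unaffected replicates 1 and 2. The differences of the 3 genes are therefore also given without unaffected replicate 3. Keratinocyte markers, which define the labelled tissue, were bright on every array, with a mean log2 value of 13.37 to 13.69 over 7 measured markers.

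Ubd was dim in unaffected skin and bright in alopecic skin. Its probe set, 1419762_at, had log2 values of 12.79, 10.29 and 12.65 in alopecic replicates 1, 2 and 3, and of 4.70, 5.12 and 4.66 in unaffected replicates 1, 2 and 3. The groups lay far apart, since the lowest alopecic array exceeded the highest unaffected array by 5.17 log2 units, or 36.0-fold. The alopecic mean was 11.91 ± 1.40 and the unaffected mean 4.83 ± 0.26 (SD, n = 3 each), a log2 difference of 7.08 (SE 0.69) or 136-fold. This was the highest difference of the 18193 genes in this fit, which is how Ubd came to be chosen. All 3 unaffected values lay below their array's median, where RMA compresses differences, so the fold is not an exact ratio. Without unaffected replicate 3 the difference was 7.00.

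The alopecic mice differed among themselves in Ubd. Alopecic replicates 1 and 3 differed by 0.14 log2 units, while replicate 2 was 5.66-fold below replicate 1 and 5.12-fold below replicate 3. The alopecic SD of 1.40 was larger than that of 99.3% of genes, whose median alopecic SD was 0.17. Among all 48 genes that rose, Ubd lay lowest in alopecic replicate 2 relative to the mean of replicates 1 and 3. Its value was -2.43 log2 units, against a median of -0.10. Counting Ubd among these 48 is no test of it, since the contrast chose it. With 1 array left out Ubd was past the threshold in 1 of 6 fits, which for the same reason is a description and no test of it. Of those 48 genes 15 were lowest in alopecic replicate 2, 31 in replicate 3 and 2 in replicate 1. The test favours genes with a small spread within a group, so a dip like that of Ubd makes passing less likely. Gzma had 11.89, 9.37 and 11.65 in alopecic replicates 1, 2 and 3 and missed the threshold (limma adjusted p = 0.0576). These counts therefore do not show how many changed genes share the low level of replicate 2. Leaving out replicate 2 moved the Ubd difference to 7.89, or 238-fold.

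**Figure D1:**
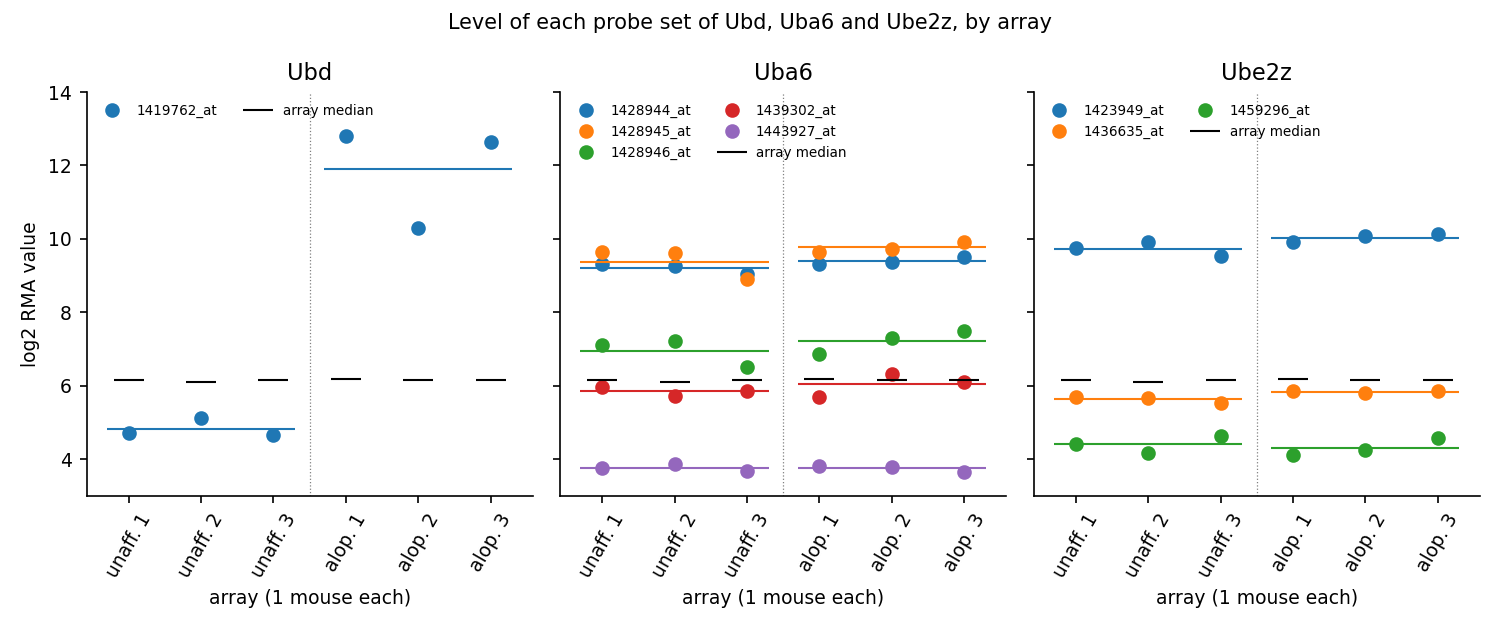
Log2 RMA values (y axis) of the 9 probe sets on each of the 6 arrays (x axis, 1 mouse each), with horizontal lines at the group means and black dashes at each array's median. Ubd goes from below the array median in unaffected skin to between 10.29 and 12.79 in alopecic skin, while the group means of each probe set of Uba6 and Ube2z differ by 0.38 log2 units at most.

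The promoter of Ubd is shown because it had by far the largest difference of the 3 measured genes and because its known inducers act through interferon regulatory factors and NF-kappaB. The 250 bases before its start were read from the RefSeq annotation of GRCm38.p6 (chr17:37193642-37193891, plus strand). Capitals mark an interferon regulatory factor core (AANNGAAA) and a match to the NF-kappaB consensus, searched on both strands.
Ubd: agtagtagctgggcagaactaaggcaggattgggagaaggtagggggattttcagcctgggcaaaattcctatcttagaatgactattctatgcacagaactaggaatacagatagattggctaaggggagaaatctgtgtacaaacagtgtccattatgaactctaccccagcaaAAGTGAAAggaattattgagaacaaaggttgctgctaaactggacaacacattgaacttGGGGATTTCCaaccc
The interferon regulatory factor core, AAGTGAAA, lay 74 to 67 bases before the start, and such a core was found in 21.3% of 32851 promoter windows of the same length. The NF-kappaB match, GGGGATTTCC, lay 15 to 6 bases before the start, and 7.25% of windows held such a match. Both were present together in 1.11% of windows. The longer interferon-stimulated response element (GAAA repeated after any 2 bases, found in 2.98% of windows, which can overlap the core) and the gamma-activated site (TTCNNNGAA, 7.02%) had no match in this window of Ubd. These motifs were chosen with the Ubd sequence in view, and a match is a description of letters, not of binding.

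The window of Ubd held 0 CG dinucleotides, as did 7.87% of all windows, against a median of 6. The window of Ube2z, in which capitals mark each CG, is shown for contrast (GRCm38.p6, chr11:96065365-96065614, minus strand).
Ube2z: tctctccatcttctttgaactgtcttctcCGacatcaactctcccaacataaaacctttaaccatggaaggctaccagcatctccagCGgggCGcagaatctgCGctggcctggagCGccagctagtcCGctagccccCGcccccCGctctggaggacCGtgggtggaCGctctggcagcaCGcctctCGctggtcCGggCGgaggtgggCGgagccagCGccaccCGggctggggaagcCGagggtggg
It held 18 CG dinucleotides at a GC content of 65.2%, where Ubd had 42.8%. Its 1 match among the interferon and NF-kappaB motifs was a gamma-activated site, TTCTTTGAA, 240 to 232 bases before the start. The window of Nub1 held 17 CG dinucleotides and none of these motifs. Uba6 was not in the promoter table.

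Uba6, the E1 enzyme that loads FAT10 and ubiquitin, differed far less between the groups than Ubd. Its brightest probe set, 1428945_at, had log2 values of 9.64, 9.72 and 9.92 in alopecic replicates 1, 2 and 3, and of 9.63, 9.60 and 8.91 in unaffected replicates 1, 2 and 3. The groups did not overlap, but alopecic replicate 1 and unaffected replicate 1 were almost equal, and unaffected replicate 3 alone was low. The difference was 0.38 (SE 0.23) or 1.31-fold, and it was 0.15 without unaffected replicate 3. The next brightest, 1428944_at, had 9.32, 9.38 and 9.51 in alopecic and 9.32, 9.26 and 9.03 in unaffected skin, a difference of 0.20 (SE 0.12), and its groups overlapped. Of the 3 dimmer probe sets, 1428946_at differed by 0.28 (SE 0.25), 1439302_at by 0.20 (SE 0.19) and 1443927_at by -0.01 (SE 0.11), and the groups overlapped in each. The last lay between 3.66 and 3.88 on every array, far below the array medians, where a difference would be compressed. Within unaffected skin replicate 3 lay under the mean of replicates 1 and 2 in 4 of the 5 probe sets, by 0.71 in the brightest, and over it by 0.01 in 1439302_at.

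Ube2z, the E2 enzyme specific to UBA6, also differed little. Its brightest probe set, 1423949_at, had log2 values of 9.91, 10.06 and 10.12 in alopecic replicates 1, 2 and 3, and of 9.74, 9.92 and 9.53 in unaffected replicates 1, 2 and 3. Unaffected replicate 2 reached the level of alopecic replicate 1, so the groups overlapped. The difference was 0.30 (SE 0.14) or 1.23-fold, and it was 0.20 without unaffected replicate 3. The probe set 1436635_at, dimmer and just below the array medians, had 5.87, 5.81 and 5.84 in alopecic and 5.68, 5.67 and 5.54 in unaffected skin, a difference of 0.21 (SE 0.09) with no overlap. The third, 1459296_at, differed by -0.09 (SE 0.18) with overlapping groups. Averaging the 3 probe sets gave 0.14 for the gene.

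Of the 9 probe sets 3 had groups that did not overlap, all higher in alopecic skin, against 11.9% of all probe sets in either direction and 5.54% higher. As the contrast chose the genes, nothing is read from these counts. At the gene level the groups of Ubd and Uba6 did not overlap, both higher, where 13.1% of all genes did not overlap and 6.93% were higher. By size of difference Ubd ranked 1, Uba6 1997 and Ube2z 2673 from the highest of 18193 genes.

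**Figure D2:**
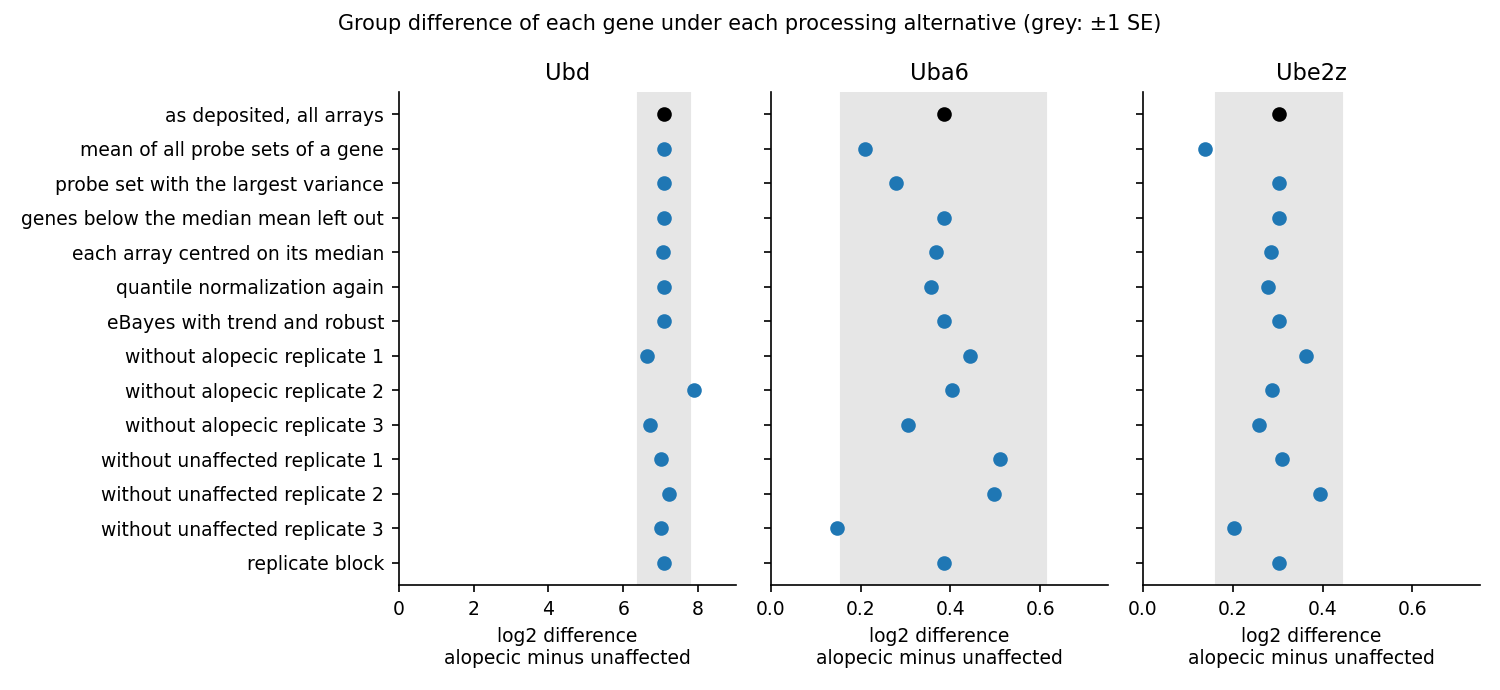
Log2 difference, alopecic minus unaffected (x axis, a different range for Ubd), under each processing alternative (y axis), with a grey band of 1 SE on each side of the value from all arrays as deposited. Ubd stays between 6.64 and 7.89, and Uba6 and Ube2z between 0.14 and 0.51.

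The genes whose pattern over the 6 arrays was most like that of Ubd included a gene of cytotoxic lymphocytes and interferon-induced chemokines. Among 5300 other genes whose values spanned at least 1 log2 unit, the 8 highest Pearson correlations with Ubd ran from 0.987 to 0.999, a description over 6 arrays that all share the group difference. Gzma, which encodes the protease granzyme A of cytotoxic lymphocytes, was the closest. Its log2 values were 11.89, 9.37 and 11.65 in alopecic and 5.05, 5.44 and 4.97 in unaffected replicates 1, 2 and 3, with the same order as Ubd within each group. Gzma differed by 5.82 (SE 0.68, limma adjusted p = 0.0576) and passed only without alopecic replicate 2 among the fits with 1 array left out (adjusted p = 0.00781, otherwise 0.131 to 0.253), and it also passed with dim genes left out (0.027) and with the trended robust prior (0.0377).

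The next were the chemokine Cxcl11, the interferon-induced Ifi44l, the actin-binding Cotl1, the endothelial adhesion molecule Vcam1, Tcaf2, the lipoxygenase Alox12e and the chemokine Cxcl9. All 8 genes were lowest in alopecic replicate 2 among the alopecic arrays, and 7 were highest in alopecic replicate 1. As the 8 genes were picked by correlation with Ubd over these same arrays, this shared order follows largely from the choice. Cxcl9, Cxcl11 and Ifi44l rose, by 6.23 (SE 0.38), 5.74 (SE 0.42) and 2.32 (SE 0.21) log2 units (limma adjusted p = 0.0091, 0.0133 and 0.0238). With 1 array left out, Cxcl9 and Cxcl11 passed without alopecic replicate 1, alopecic replicate 2 or unaffected replicate 3 (adjusted p from 0.0263 to 0.0406) and missed without the others (0.0532 to 0.0902), and Ifi44l passed without alopecic replicate 2 alone (0.0425, otherwise 0.069 to 0.166). With all probe sets of a gene averaged, Cxcl11 at 3.78 and Ifi44l at 1.21 missed the threshold (adjusted p = 0.0513 and 0.11), and Cxcl9 at 4.75 passed (0.0107). Cotl1 at 1.81 (SE 0.29), Vcam1 at 2.54 (SE 0.31), Tcaf2 at 3.05 (SE 0.42) and Alox12e at 2.02 (SE 0.28) missed the threshold (limma adjusted p = 0.135, 0.0599, 0.0831 and 0.0831). Of these, Cotl1 passed without alopecic replicate 2 (0.0412), Vcam1 with the trended robust prior (0.0477) and Tcaf2 with dim genes left out (0.0476), while Vcam1 differed by 1.28 with its probe sets averaged. Of the 5 of these genes in the promoter table, 3 had an interferon regulatory factor core (21.3% of all windows), Gzma, Ifi44l and Tcaf2, and 1, Tcaf2, an NF-kappaB match (7.25%). Gzma also had the interferon-stimulated response element (2.98%), which overlapped its core and for which the Ubd window had no match.

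**Figure D3:**
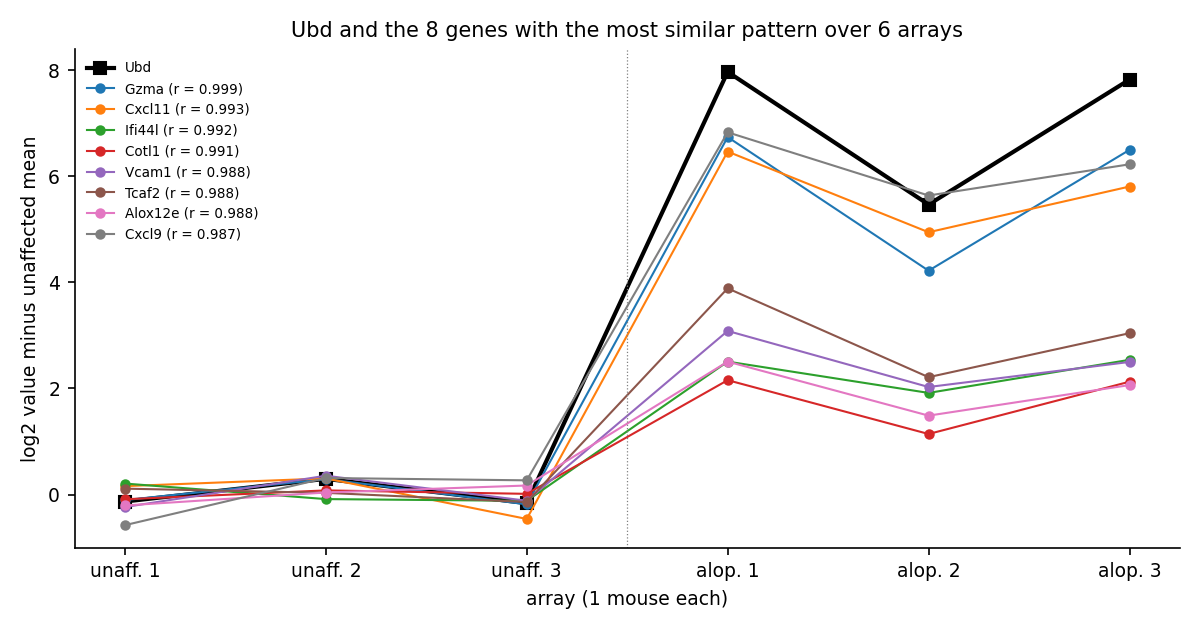
Log2 value minus the mean of the 3 unaffected arrays (y axis) on each array (x axis, 1 mouse each) for Ubd and the 8 genes most correlated with it; the lines only join the points of a gene. Every gene shown is lower in alopecic replicate 2 than in alopecic replicates 1 and 3, which the choice by correlation favours, and Ubd and Gzma dip the most.

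Uba6 and Ube2z had other companions. The 3 genes most like Uba6 were Lbh (r = 0.997), Sap30 (0.995) and Hacd3 (0.990), and those most like Ube2z were Ap1s1 (0.995), the desmosomal cadherin Dsg2 (0.992) and the membrane protease Adam10 (0.982). All 6 were lowest in unaffected replicate 3, as both enzymes were, which their choice by correlation over these same arrays favours. None of the 6 passed the test, with log2 differences from 0.48 for Adam10 to 1.05 for Lbh. Without unaffected replicate 3 the differences were 0.47 for Lbh, 0.25 for Sap30, 0.24 for Hacd3, 0.44 for Ap1s1, 0.64 for Dsg2 and 0.28 for Adam10.

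Other genes of the pathway were taken in 6 lists. Among the other activating enzymes 1 of 6 measured genes rose and 0 fell, where 0.264% of all genes rose and 0.011% fell, 0.275% in all (median log2 difference 0.20, against -0.01 over all genes). The gene that rose was Uba7, the enzyme that activates the interferon-induced modifier ISG15. Its log2 values were 8.70, 8.67 and 8.54 in alopecic and 6.42, 6.75 and 6.86 in unaffected replicates 1, 2 and 3, a difference of 1.96 (SE 0.15) or 3.89-fold (limma adjusted p = 0.0133). With 1 array left out it passed without unaffected replicate 3 (adjusted p = 0.0263) and missed without any other (0.065 to 0.0958), and it missed with its probe sets averaged, at 1.56 (0.0552). The other 5, which serve ubiquitin-like modifiers such as NEDD8, SUMO and ATG12, differed by at most 0.29.

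Among 34 measured conjugating enzymes other than Ube2z, 0 passed the limma test after adjustment and 2 had an unadjusted p under 0.05, as 7.15% of all genes did (median -0.04). Ube2d3 and Ube2d2a, enzymes of the ubiquitin pathway with the highest means of the list, differed by -0.14 (SE 0.25) and 0.46 (SE 0.16). Ube2l6, the conjugating enzyme of ISG15, was chosen after its values were seen. It had log2 values of 7.44, 7.15 and 6.63 in alopecic and 4.54, 4.86 and 5.11 in unaffected replicates 1, 2 and 3, with no overlap. Its difference of 2.23 (SE 0.26) missed the threshold (limma adjusted p = 0.0531), and the adjusted p ran from 0.0337 to 0.413 over the alternatives. Birc6, which works with UBA6 in ubiquitin transfer and was also chosen after its values were seen, differed by 0.18 (SE 0.10), and by 0.07 with its probe sets averaged.

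Of 12 measured ubiquitin and ubiquitin-like modifiers 0 passed, and 0 had an unadjusted limma p under 0.05 (median 0.01). Of all genes, 0.275% passed and 7.15% had an unadjusted p under 0.05. In lists as small as this one and those below, a count of 0 is near these shares, and nothing is read from it. Fau, a ribosomal protein made as a fusion with a ubiquitin-like domain, differed by 0.14 (SE 0.11) and the autophagy modifier Map1lc3a by -0.01 (SE 0.17). The difference of Ubd, at 7.08, stood beside a range of -0.63 to 0.25 among these other modifiers. ISG15 itself was not matched and is not analysed here. Of 7 measured proteasome receptors and shuttle proteins, which bring ubiquitin-marked proteins to the proteasome as NUB1 does for FAT10, 0 passed and 0 had an unadjusted p under 0.05 (median 0.14). Zfand5 differed by -0.15 (SE 0.22) and the proteasome subunit Psmd2 by 0.24 (SE 0.14). Of 9 measured genes reported to bind or carry FAT10, 0 passed and 0 had an unadjusted p under 0.05 (median -0.08). The replication clamp Pcna differed by 0.51 (SE 0.36) and Psmd4, a proteasome subunit that binds FAT10, by -0.08 (SE 0.16).

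The cytokines known to induce FAT10 and their signalling genes held further changes. Of 18 measured genes 2 rose and 0 fell (median 0.31), where 0.264% and 0.011% of all genes did, and 6 had an unadjusted limma p under 0.05, against 7.15% of all genes. The groups of 7 of the 18 did not overlap and were higher in alopecic skin, as were those of 6.93% of all genes. Ifng, which encodes interferon gamma, had dim log2 values of 7.51, 6.76 and 6.69 in alopecic and 4.54, 4.86 and 4.86 in unaffected replicates 1, 2 and 3. It rose by 2.24 (SE 0.25, limma adjusted p = 0.0494), and with 1 array left out it passed without alopecic replicate 1 (0.0475) and missed otherwise (0.104 to 0.233). Ifng also missed with probe sets averaged (0.0502) and with the probe set of largest variance per gene (0.0526), where its own value was the same. With dim genes left out Ifng was among those removed. Irf1, the transcription factor that binds interferon regulatory factor cores, had 11.82, 11.61 and 11.60 in alopecic and 8.50, 8.84 and 8.90 in unaffected skin. It rose by 2.93 (SE 0.15) or 7.61-fold (limma adjusted p = 0.00607), and missed the threshold only without unaffected replicate 2 (0.0679) among the fits with 1 array left out. Both genes had nearly the same value in alopecic replicates 2 and 3, unlike Ubd.

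Tnf, which encodes tumour necrosis factor, did not pass the test. Chosen after its values were seen, it had dim log2 values of 6.07, 5.36 and 5.48 in alopecic and 5.22, 5.39 and 6.02 in unaffected replicates 1, 2 and 3, a difference of 0.09 (SE 0.29) with overlapping groups. Ltb, which encodes lymphotoxin beta of the same family and was also chosen after its values were seen, had 10.31, 9.02 and 9.39 in alopecic and 6.40, 6.92 and 6.28 in unaffected skin. Ltb was lowest in alopecic replicate 2, like Ubd, and its difference of 3.04 (SE 0.37) missed the threshold (limma adjusted p = 0.0599, from 0.0311 to 0.375 over the alternatives). Lta at 1.39 (SE 0.36), Tnfrsf1b at 1.06 (SE 0.32) and Nfkb2 at 1.28 (SE 0.21), chosen likewise, were higher without overlap. They also missed the threshold (limma adjusted p = 0.445, 0.554 and 0.134), and Nfkb2 passed without unaffected replicate 3 (0.0287). The groups of Tnfrsf1a at 0.10 (SE 0.10) and Relb at 0.66 (SE 0.40) overlapped.

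**Figure D4:**
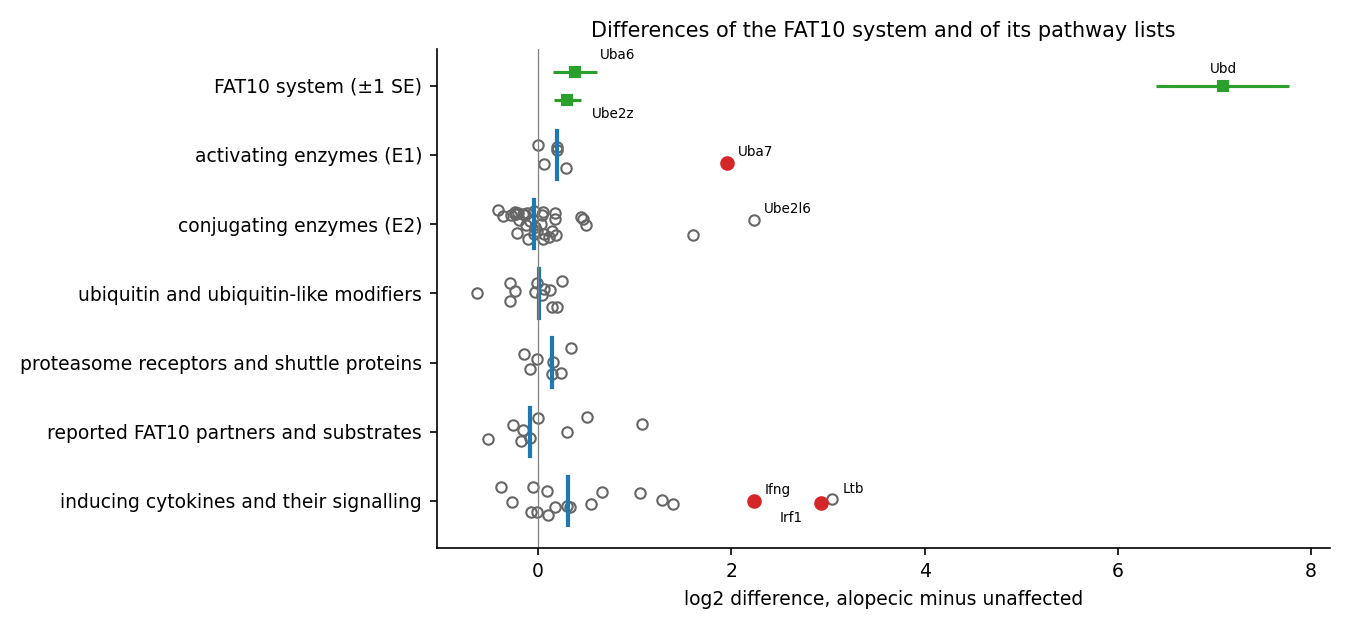
Log2 difference, alopecic minus unaffected (x axis), of Ubd, Uba6 and Ube2z (green squares with 1 SE on each side) and of each measured gene of the 6 pathway lists (circles; filled red where the limma adjusted p was under 0.05), with a blue bar at each list's median. Uba7, Ifng and Irf1 are the circles past the threshold, and most other circles lie near 0.

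The samples were whole skin, so more cells of a type and more RNA per cell cannot be told apart. Markers of cell types that can carry Ubd or that mark infiltrates are given beside it as mean log2 values over the measured markers of each list. T cell markers (7 measured) had means of 8.08, 7.18 and 7.14 in alopecic replicates 1, 2 and 3 and of 6.22 to 6.43 in unaffected skin. Of these 7, 6 were higher in every alopecic array and Cd4 was lower in every one, 6 had an unadjusted limma p under 0.05 and 0 passed after adjustment. Over all genes, 13.1% did not overlap, 6.93% did so with higher values, and 7.15% had an unadjusted p under 0.05. Their level was alike in alopecic replicates 2 and 3, which differed 5.12-fold in Ubd. Mature dendritic cell markers (5 measured) had means of 8.05, 7.68 and 7.48 in alopecic and of 7.18, 7.34 and 6.40 in unaffected replicates 1, 2 and 3. The lowest of these was unaffected replicate 3, the array that stood apart, and unaffected replicate 2 lay close to alopecic replicate 3. Of the 5 markers 3 were apart and higher and 0 past the threshold (2 at an unadjusted limma p under 0.05), beside the same 6.93% and 7.15% of all genes. Macrophage markers (6 measured) had means of 10.04, 8.01 and 9.37 in alopecic and of 8.20 to 9.85 in unaffected skin, so that alopecic replicate 2 was the lowest array here as in Ubd within its group, while the groups overlapped. B cell markers lay below the array median on every array for all 5 measured genes, with means of 4.65 to 4.80 in alopecic and 4.69 to 4.75 in unaffected skin. Keratinocyte markers (7 measured) had overlapping means of 13.69, 13.54 and 13.40 in alopecic and of 13.47, 13.37 and 13.53 in unaffected replicates 1, 2 and 3. Of these 7, Krt5 and Krt14 were apart and higher, beside 6.93% of all genes. Each had an unadjusted limma p under 0.05, as 7.15% of all genes did, and 0 of the 7 passed. Means of endothelial markers, at 6.40 to 7.17 and 6.57 to 7.46, and of skeletal muscle markers, at 13.11 to 14.13 and 11.88 to 14.73, overlapped between alopecic and unaffected arrays. Fat markers (4 measured) had means of 9.37, 9.62 and 8.71 in alopecic and of 10.40, 10.91 and 8.11 in unaffected replicates 1, 2 and 3. The groups overlapped through unaffected replicate 3 only, and every alopecic array lay below unaffected replicates 1 and 2. Of the 4 fat markers 0 had a difference above 0 (median -0.56), and 0 passed the limma test. The part of any of these cell types in the Ubd difference was not tested. The 5 annotated genes on each side of Ubd on its chromosome, olfactory receptor genes and pseudogenes, had no probe set with a single symbol here.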

How the data were processed

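Gene expression was measured on 1 array for each of 6 mice. The authors deposited log2 values, and the submitters' processing notes name RMA; its software, version and genome build are not given in the sources used. Values were used as deposited. Of 45037 probe sets other than 64 controls, 34945 had 1 gene symbol in the platform table, and symbols were updated through RefSeq (GRCm38.p6) gene identifiers for 34741. The probe set with the highest mean stood for each gene, giving 18193 genes with no filter on dim ones. Groups were compared with limma 3.58.1 in R 4.3.3 (lmFit, eBayes, two-sided, Benjamini-Hochberg over all genes, threshold 0.05), and standard errors are those of that fit. Those of single probe sets came from the same fit over all probe sets. The fit was run on simulated data with noise of equal spread in both groups, no larger than the median over genes. That run does not bear on genes as variable as Ubd, or on an array that stands apart. "Rose" and "fell" mean past the threshold. An array has no read depth, and 3 arrays per group limit the precision.

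The members and the 6 pathway lists (107 entries, 85 of 104 different genes measured) were chosen with earlier results of these data known. Besides all members, the named genes are up to 4 genes of each list past the threshold or else the 2 with the highest mean, the 8 genes most correlated with Ubd, the 3 most correlated with each enzyme, and measured genes among 5 neighbours on each side of Ubd. Promoter windows are the 250 bases before each start in the RefSeq table. The alternatives were other probe sets per gene, a filter on dim genes, median centring, repeated quantile normalization, a trended robust prior, leaving out each array, and a replicate block.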

Additional observations from a re-analysis of the deposited data

How the results depend on the processing

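Over the 13 alternatives the Ubd difference kept its direction and ran from 6.64 to 7.89, the extremes coming without alopecic replicates 1 and 2, and moved by less than the spread between replicates in each. Uba6 ran from 0.15 to 0.51 with 1 array left out and Ube2z from 0.20 to 0.40; Ube2z fell outside its replicate spread with all its probe sets averaged, at 0.14. The number of genes past the threshold, 50, ran from 4 to 39 with 1 array left out: 33, 14 and 17 without alopecic replicates 1, 2 and 3, and 7, 4 and 39 without unaffected replicates 1, 2 and 3. The count among activating enzymes, 1, ran from 0 to 1 with 1 array left out and was 0 with probe sets averaged. That among conjugating enzymes, 0, was 1 with arrays centred on their medians, with quantile normalization again and with the trended robust prior; in each the gene was Ube2l6. That among inducing cytokines and their signalling, 2, ran from 0 to 2 with 1 array left out and was 1 with probe sets averaged, 1 with the probe set of largest variance and 3 with the trended robust prior. A count of 2 did not always stand for Irf1 and Ifng. With dim genes left out Ifng was not tested, and Irf1 and Ltb passed (limma adjusted p = 0.00307 and 0.0311). Without unaffected replicate 3 Irf1 and Nfkb2 passed (0.0126 and 0.0287), and Ifng missed (0.104). The other 3 lists stayed at 0 throughout. Same-numbered arrays did not deviate together (correlations of -0.13, -0.20 and -0.33 over genes, and 0 of 6 arrays correlated best with their own number), so the numbers were not taken as pairs. With the replicate block 0 genes passed in limma (873 at an unadjusted p under 0.05), 0 of the activating enzymes and 0 of the inducing genes, while the Ubd difference stayed at 7.08. Signal near background limits the unaffected level of Ubd and the dim probe sets of Uba6 and Ube2z.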
